A study of Homo sapiens with 8 samples.

Results

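The genes described here are 10 heat shock proteins and co-chaperones: HSPA1A, HSPA1B, HSPA8, HSPH1, HSP90AA1, HSPB1, HSPD1, HSPE1, DNAJB1 and BAG3. They were taken as the rows of the count table whose Ensembl gene ID carries one of these symbols in GENCODE. Each symbol had 1 ID, so the set is 10 of the 40295 gene IDs in the table. After the filter on low counts, 9 of the 10 were among the 16519 genes tested, HSPA1A being left out with no count in any library.

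The cells were HCT116, a human colorectal cancer line, and a CRISPR-Cas9 derivative with the E33Q change knocked into MED12, which belongs to the kinase module of the Mediator complex. The 4 groups were knock-in cells treated for 24 h with 5 ng/ml interferon-γ (IFN-γ), untreated knock-in cells (0 h), wild-type cells treated in the same way and untreated wild-type cells (0 h), with 2 libraries in each. Total RNA depleted of rRNA and holding ERCC spike-in RNAs was sequenced. The labels name 1 knock-in line, so the E33Q change and differences between clones cannot be told apart, and IFN-γ and time in culture cannot be told apart either. They do not say whether the 2 libraries of a group came from separate cultures, so p-values measure only the spread between these libraries, which may be technical.

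Heat shock proteins are molecular chaperones that hold, fold or disassemble other proteins, and many are induced by heat and other proteotoxic stress through heat shock factor HSF1. HSP70 proteins bind exposed hydrophobic stretches in cycles of ATP hydrolysis, J-domain proteins such as DNAJB1 deliver clients and stimulate hydrolysis, and nucleotide exchange factors such as HSPH1 and BAG3 release the client. HSP90 acts later on folded but unstable clients such as kinases and steroid receptors, the chaperonin HSPD1 with its lid HSPE1 folds proteins in the mitochondrial matrix, and small heat shock proteins such as HSPB1 hold unfolded proteins without ATP.

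HSF1 binds heat shock elements, inverted repeats of the letters GAA. RefSeq promoter windows of GRCh38.p14, 250 bases before to 50 after each transcript start, were searched on both strands for a pair of inverted repeats (GAANNTTC or TTCNNGAA) and for 3 in a row (GAANNTTCNNGAA or TTCNNGAANNTTC), so that every match to the longer motif also holds the shorter one. All 10 genes had a window. A pair was present in 7 of them, all except HSPH1, HSPE1 and BAG3, against 16.18% of the 27305 genes with a window, and a triple was present in 3, HSPA8, HSP90AA1 and HSPD1, against 0.6079% of genes. The stretches are shown because heat shock elements are the known route by which heat induces such genes. Where a gene has several starts, the window with most pairs is the one drawn on, so the further pair in another window of DNAJB1 is not printed. Capitals mark the matched letters, and the strand is that of the gene:
HSPA1A (chr6:31815425-31815456, plus): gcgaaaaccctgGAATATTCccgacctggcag
HSPA1B (chr6:31827621-31827652, plus): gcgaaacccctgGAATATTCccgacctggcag
HSPA8, distal (chr11:123062342-123062378, minus): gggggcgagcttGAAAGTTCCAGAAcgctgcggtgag
HSPA8, proximal (chr11:123062167-123062203, minus): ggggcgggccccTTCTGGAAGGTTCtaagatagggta
HSP90AA1 (chr14:102087093-102087144, minus): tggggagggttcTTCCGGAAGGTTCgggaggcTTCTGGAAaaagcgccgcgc
HSPB1 (chr7:76302479-76302510, plus): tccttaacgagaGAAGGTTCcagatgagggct
HSPD1 (chr2:197500056-197500090, minus): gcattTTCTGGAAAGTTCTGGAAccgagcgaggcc
DNAJB1 (chr19:14518425-14518486, minus): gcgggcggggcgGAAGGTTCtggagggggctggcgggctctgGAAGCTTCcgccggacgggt

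The HSPA1A and HSPA1B stretches are nearly the same, and 235 of 249 compared upstream bases of these neighbouring genes (94.38%) were identical. A match is a description of the letters in these windows, and no match says only that the letters are not there. The HSPE1 window (chr2:197500129-197500428, plus) begins just beyond the HSPD1 stretch shown above, which was therefore not counted for HSPE1.

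The libraries held 20901909 to 28045842 estimated counts and 14792 to 15827 genes with at least 10 counts. As a check of the treatment label, the interferon-induced gene IRF1 was higher after IFN-γ by 4.92 ± 0.17 on the log2 scale in knock-in and by 4.86 ± 0.17 in wild-type cells (standard error, edgeR). The 6 epithelial markers were all detected and summed to 2280 to 5123 CPM (counts set against library size, with TMM, the trimmed mean of M-values, as the scaling), while leukocyte, fibroblast and endothelial markers summed to at most 6.503 CPM. Plasma and B cell markers, of which 10 of 10 were detected somewhere, summed to 247.6 to 359.6 CPM in treated knock-in library 2, untreated knock-in library 2 and both untreated wild-type libraries, against at most 0.4959 CPM in the other 4. The high sums came mostly from JCHAIN, IGKC, IGHA1 and IGHA2. IGHG1, IGHM and CD79A stayed at or below 0.2289 CPM in every library and did not follow this pattern. The mean GC content of the counted transcripts was 48.33 to 48.52% in treated and 45.65 to 47.05% in untreated libraries, and ERCC spike-ins took 0.2276 to 0.2714% of counts in treated and 0.1099 to 0.1407% in untreated libraries.

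Together the 10 genes took 1.472 and 1.499% of all counts in treated knock-in, 2.317 and 2.381% in untreated knock-in, 1.869 and 1.919% in treated wild-type and 2.528 and 3.226% in untreated wild-type libraries. Their levels spanned a wide range. Per kilobase of transcript, HSP90AA1 was the most abundant on average over the 8 libraries with 3282 CPM per kb, followed by HSPA8 with 2300, HSPD1 with 1463, HSPE1 with 354 and HSPB1 with 145. HSPH1 followed with 140.8 CPM per kb, DNAJB1 with 96.16, BAG3 with 12.58 and HSPA1B with 0.4455. HSPB1 and HSPH1 changed places between groups, at 166.8 ± 15 and 124 ± 0.738 CPM per kb in treated knock-in cells and 102.8 ± 6.31 and 160.8 ± 12.9 CPM per kb in untreated knock-in cells (SD, n = 2).

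In knock-in cells treated with IFN-γ, HSP90AA1, HSPA8, HSPD1, HSPE1 and HSPH1 were lower than in untreated ones, and BAG3, DNAJB1 and HSPB1 were higher. These 8 of 9 tested members passed the threshold (adjusted p under 0.05 in edgeR's quasi-likelihood test, adjusted after Benjamini and Hochberg over all tested genes), 3 higher and 5 lower, in a comparison that called 52.1% of all tested genes, 26.4% higher and 25.8% lower. In wild-type cells 2 members rose, DNAJB1 and BAG3, and 4 fell, HSP90AA1, HSPA8, HSPD1 and HSPE1, in a comparison that called 37.9% of genes, 17.1% higher and 20.8% lower. The median log2 fold change of the 9 members was -0.37 in knock-in cells, where that of all tested genes was 0.12, and -0.16 in wild-type cells, where it was 0.08. The replicates of treated and untreated cells did not overlap for 8 of 9 members in knock-in cells (78.9% of all tested genes) and 7 of 9 in wild-type cells (69.6%).

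**Figure D1:**
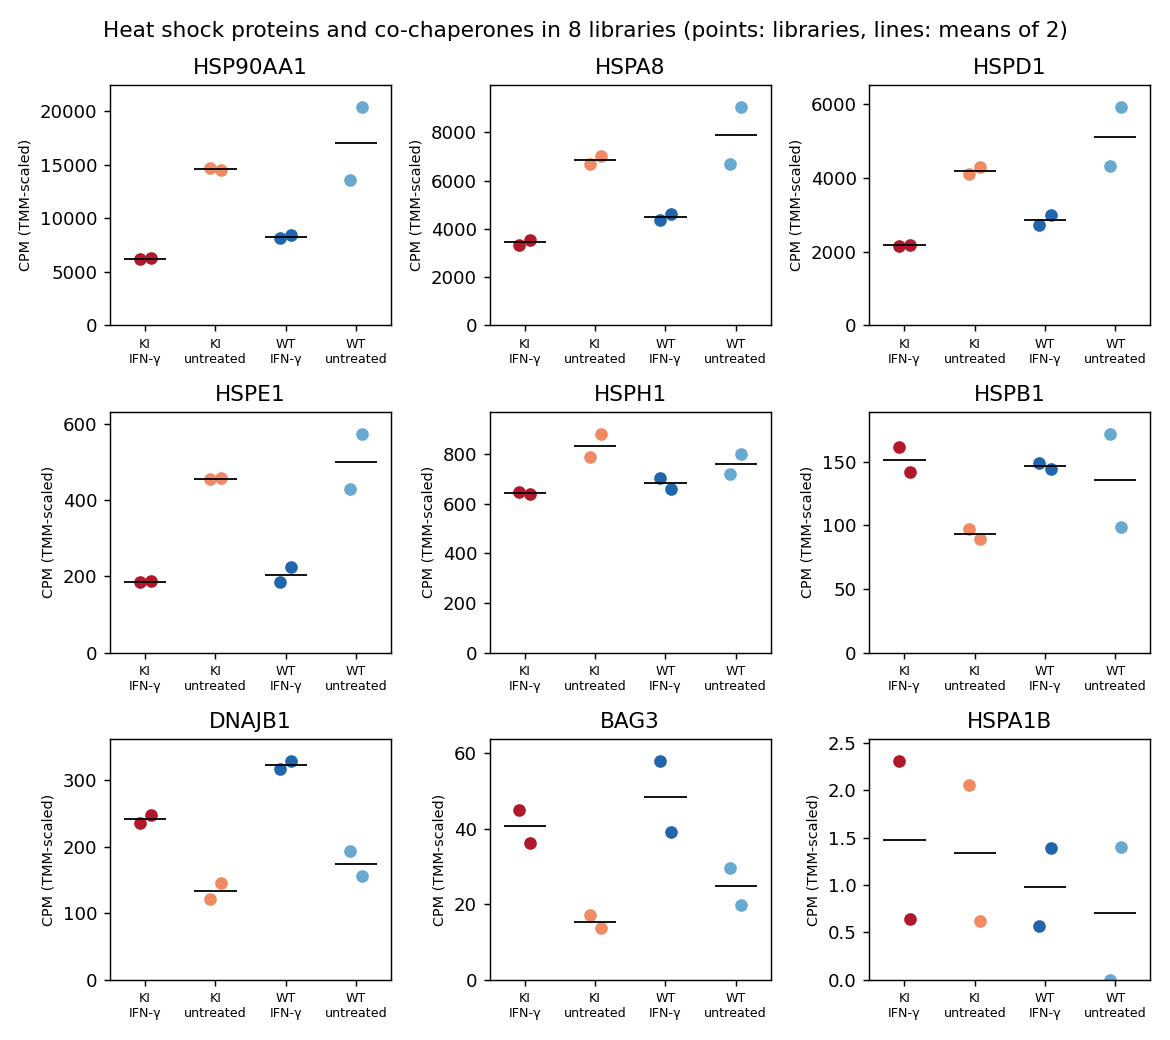
Level of 9 members in CPM after TMM scaling, with each library as a point and the mean of 2 libraries as a line. In the panels of HSP90AA1, HSPA8, HSPD1 and HSPE1 all treated libraries lie below all untreated ones, in those of DNAJB1 and BAG3 all treated libraries lie above, and HSPA1B stays at or below 2.308 CPM.

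HSPA8 is the constitutive cytosolic HSP70, which works in normal growth as well as in stress, and it carries the distal and proximal stretches shown above. It had 3356 and 3525 CPM in treated and 6674 and 7015 CPM in untreated knock-in libraries. It had 4361 and 4637 CPM in treated and 6690 and 9065 CPM in untreated wild-type libraries. All 4 treated libraries were lower than all 4 untreated ones, and the treated knock-in libraries were the lowest of all. Its log2 fold change with IFN-γ was -0.99 ± 0.14 in knock-in cells (adjusted p = 0.000476, edgeR) and -0.81 ± 0.14 in wild-type cells (adjusted p = 0.00235, edgeR; ± is the standard error).

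HSPA1A and HSPA1B encode the stress-inducible HSP70, which is almost the same protein from both genes. HSPA1A had 0 counts in all 8 libraries. HSPA1B had 63 and 16 counts in treated knock-in, 37 and 15 in untreated knock-in, 15 and 34 in treated wild-type and 0 and 28 in untreated wild-type libraries, and treated and untreated libraries overlapped in each line. These counts do not show that the genes were silent. Both lie in the MHC region of chromosome 6. Of the 31-base words of HSPA1A's transcript, 74.28% also occur in HSPA1B, so how reads were split between the 2 genes is uncertain. Between 29 and 33 Mb of chromosome 6, 38 of 153 protein-coding genes (24.8%) were at 0 in every library, against 110 of 891 (12.3%) on the rest of it. The table also holds 4712 IDs that GENCODE 29 does not name, with 2.23 to 3.05% of the counts of a library, and whether reads of HSPA1A and HSPA1B were counted there was not tested.

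DNAJB1 is a J-domain partner of HSP70 that heat induces strongly. It had 235.7 and 247.3 CPM in treated and 120.9 and 145 CPM in untreated knock-in libraries. It had 316.4 and 328.4 CPM in treated and 192.8 and 155.2 CPM in untreated wild-type libraries. Every treated library was higher than every untreated one, the opposite of HSPA8, and the treated wild-type libraries were the highest. The log2 fold change was 0.86 ± 0.15 in knock-in cells (adjusted p = 0.00111, edgeR) and 0.89 ± 0.15 in wild-type cells (adjusted p = 0.00183, edgeR).

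BAG3 is a nucleotide exchange factor that links HSP70 to small heat shock proteins and to autophagy of aggregated clients. It had 45.13 and 36.26 CPM in treated and 17.05 and 13.75 CPM in untreated knock-in libraries, and 57.95 and 39.19 CPM in treated and 29.7 and 19.79 CPM in untreated wild-type libraries. The treated libraries were again all higher than the untreated ones. BAG3 rose by 1.41 ± 0.26 on the log2 scale in knock-in cells (adjusted p = 0.00159, edgeR), the largest rise among the members there, and by 0.97 ± 0.25 in wild-type cells (adjusted p = 0.0148, edgeR). The wild-type call rests on single libraries, since it was lost without treated wild-type replicate 1 (0.66, adjusted p = 0.133, edgeR) or without untreated wild-type replicate 2 (0.71, adjusted p = 0.0897, edgeR).

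HSPH1, the HSP110 exchange factor of HSP70, had 646.4 and 640.9 CPM in treated and 787.4 and 881.9 CPM in untreated knock-in libraries, and 706.2 and 661.9 CPM in treated and 722.3 and 801.2 CPM in untreated wild-type libraries. Treated libraries were lower in both lines, with a narrow gap in wild-type cells. The log2 fold change was -0.37 ± 0.12 in knock-in cells (adjusted p = 0.0238, edgeR) and -0.16 ± 0.12 in wild-type cells (adjusted p = 0.332, edgeR). The knock-in call was lost without treated knock-in replicate 1 (-0.39), treated knock-in replicate 2 (-0.37) or untreated knock-in replicate 2 (-0.29).

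HSP90AA1 is the stress-inducible cytosolic HSP90, and HSP90AB1 is its constitutive counterpart. HSP90AA1 had 6189 and 6288 CPM in treated and 14680 and 14470 CPM in untreated knock-in libraries. It had 8161 and 8421 CPM in treated and 13570 and 20390 CPM in untreated wild-type libraries. Treated libraries were lower in both lines without overlap, and the 2 untreated wild-type libraries lay on either side of the untreated knock-in ones. The log2 fold change was -1.22 ± 0.16 in knock-in cells (adjusted p = 0.000358, edgeR) and -1.03 ± 0.16 in wild-type cells (adjusted p = 0.0015, edgeR). HSP90AB1, which is not one of the 10, had a log2 fold change of -0.08 ± 0.14 in knock-in cells (adjusted p = 0.675, edgeR) and 0.08 ± 0.14 in wild-type cells (adjusted p = 0.664, edgeR).

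HSPD1 is the mitochondrial chaperonin HSP60. It had 2164 and 2191 CPM in treated and 4107 and 4287 CPM in untreated knock-in libraries, and 2729 and 3009 CPM in treated and 4315 and 5932 CPM in untreated wild-type libraries. HSPE1, its lid HSP10, had 184.1 and 187.3 CPM in treated and 455 and 456.2 CPM in untreated knock-in libraries, and 183.7 and 223.5 CPM in treated and 428.1 and 572.6 CPM in untreated wild-type libraries. For both genes the treated libraries of both lines were all below the untreated ones. HSPD1 fell by 0.95 ± 0.15 in knock-in cells (adjusted p = 0.000724, edgeR) and by 0.84 ± 0.15 in wild-type cells (adjusted p = 0.00249, edgeR) on the log2 scale. HSPE1 fell by 1.29 ± 0.16 in knock-in cells (adjusted p = 0.000281, edgeR) and by 1.30 ± 0.16 in wild-type cells (adjusted p = 0.000602, edgeR), the largest fall among the members in each line. The 2 genes stand head to head on chromosome 2 and overlap in GENCODE (HSPD1 chr2:197486581-197516737, minus; HSPE1 chr2:197499994-197503457, plus), and 27.28% of the 31-base words of HSPE1's transcript also occur in HSPD1's on either strand. Over all other genes, pseudogenes included, the shared words came to 58.8% for HSPE1, 47.46% for HSPD1, 41.35% for HSPA8 and 40.69% for HSP90AA1, so the counts of these 4 genes are uncertain where reads could be assigned to such copies.

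HSPB1, the small heat shock protein HSP27, had 161.3 and 142 CPM in treated and 97.49 and 89.37 CPM in untreated knock-in libraries. It had 149.2 and 144.1 CPM in treated and 171.9 and 98.95 CPM in untreated wild-type libraries. The treated libraries were higher in knock-in cells, while in wild-type cells the 2 treated libraries lay between the 2 untreated ones. The log2 fold change was 0.70 ± 0.22 in knock-in cells (adjusted p = 0.0244, edgeR) and 0.11 ± 0.22 in wild-type cells (adjusted p = 0.716, edgeR). The knock-in call was lost when any 1 of the 4 knock-in libraries was left out, with values of 0.60 to 0.79 and adjusted p of 0.05 to 0.125 (edgeR).

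**Figure D2:**
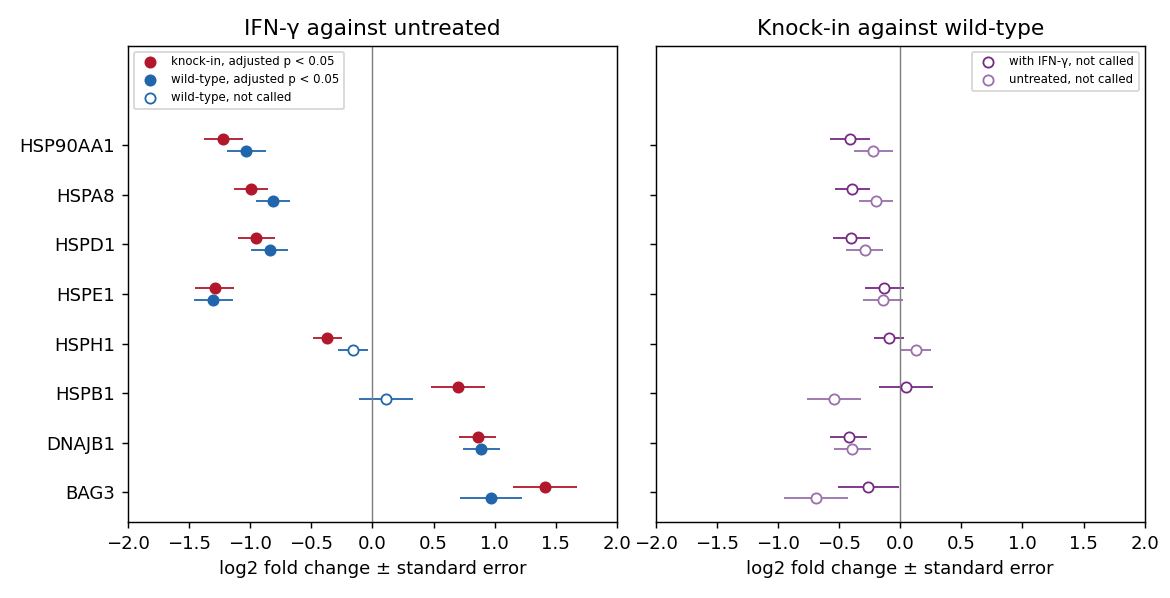
Log2 fold changes of 8 members with standard errors (edgeR, 2 libraries per group), for IFN-γ against untreated cells on the left and knock-in against wild-type cells on the right. Filled points have an adjusted p under 0.05 over all tested genes. On the left HSP90AA1, HSPA8, HSPD1 and HSPE1 lie below 0 and DNAJB1 and BAG3 above 0 in both lines, and on the right no point is filled.

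The members that fell and those that rose also differ in base composition. The transcripts of the 5 members lower in knock-in cells had a GC content of 39.95 to 50.21% and those of the 3 higher ones 53.05 to 64.47%, around a median of 48.83% for all tested genes with a known value. When the dependence of counts on GC content and length was taken out of each library, the knock-in responses became -1.02 for HSP90AA1, -0.76 for HSPA8, -0.46 for HSPD1 and -0.88 for HSPE1, and 0.63 for DNAJB1, 0.87 for BAG3 and 0.51 for HSPB1, all still with an adjusted p under 0.05 (edgeR). HSPH1, the member poorest in GC, changed sign, at 0.13 (adjusted p = 0.348, edgeR) in knock-in and 0.12 (adjusted p = 0.413, edgeR) in wild-type cells. In wild-type cells HSP90AA1 (-0.94), HSPA8 (-0.69), HSPD1 (-0.55), HSPE1 (-0.92) and DNAJB1 (0.71) kept their calls, while BAG3 lost it (0.64, adjusted p = 0.0551, edgeR). With this correction the knock-in response called 32.2% of all tested genes and the wild-type response 25.5%.

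Scaling to the ERCC spike-ins in place of TMM moved the median log2 fold change of all tested genes to -0.41 in knock-in and -0.72 in wild-type cells, and the members moved with it. HSP90AA1 was at -1.76 in knock-in and -1.80 in wild-type cells, HSPA8 at -1.52 and -1.59, HSPD1 at -1.48 and -1.62, and HSPE1 at -1.83 and -2.09 in the same order, all called. HSPH1 was called lower in both lines on this scale, at -0.91 in knock-in cells (adjusted p = 0.000717, edgeR) and -0.94 in wild-type cells (adjusted p = 0.000541, edgeR). On this scale, on which 36.9% of all tested genes were called in knock-in and 42.2% in wild-type cells, no rise of a member was called. DNAJB1 was at 0.33 in knock-in cells (adjusted p = 0.274, edgeR) and 0.07 in wild-type cells (adjusted p = 0.842, edgeR), and BAG3 at 0.87 (adjusted p = 0.0965, edgeR) and 0.16 (adjusted p = 0.763, edgeR). HSPB1 was at 0.17 in knock-in cells and had the opposite sign in wild-type cells, at -0.73 (adjusted p = 0.0968, edgeR). The amount of spike-in added per cell is not given in the sources used here, so less RNA per cell and fewer cells per extract cannot be told apart.

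**Figure D3:**
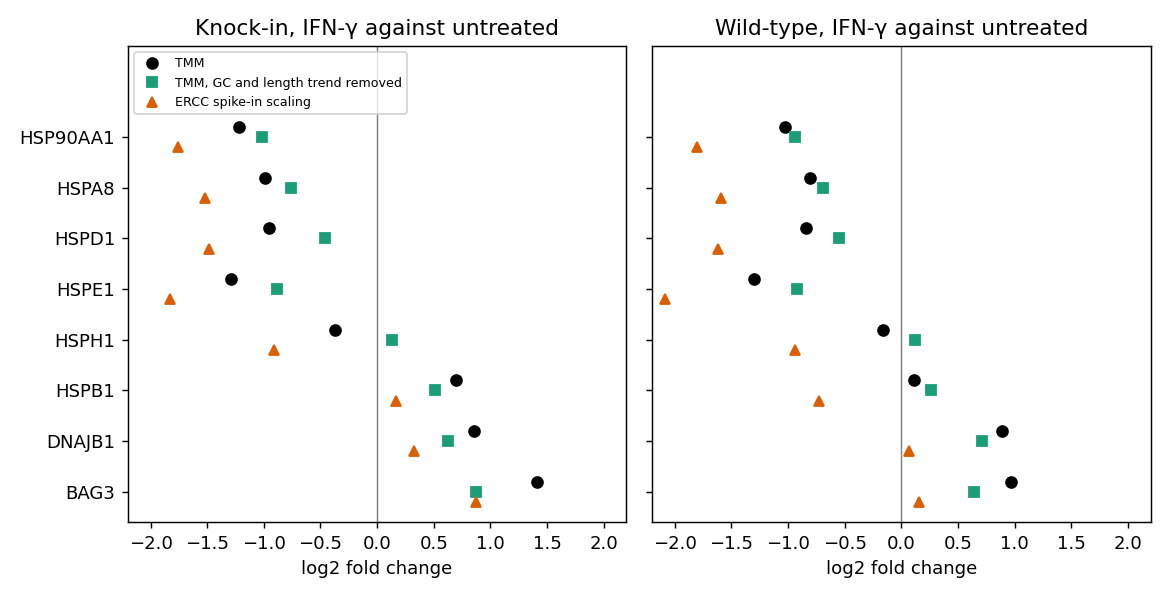
Log2 fold change with IFN-γ of 8 members in knock-in cells (left) and wild-type cells (right) under TMM scaling, after removal of the GC and length trend, and under ERCC scaling. HSP90AA1, HSPA8, HSPD1 and HSPE1 stay below 0 in all 3, HSPH1 crosses 0 when the trend is removed, and DNAJB1 and BAG3 stay above 0 but come near it under ERCC scaling in wild-type cells.

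Ratios between 2 members within a library do not depend on the scaling between libraries. DNAJB1 counts were 7.02 and 7.02% of HSPA8 counts in treated and 1.81 and 2.07% in untreated knock-in libraries, and 7.26 and 7.08% in treated and 2.88 and 1.71% in untreated wild-type libraries. The 4 treated libraries thus lay close together and far above the untreated ones. BAG3 counts were 1.34 and 1.03% of HSPA8 counts in treated and 0.255 and 0.196% in untreated knock-in libraries, and 1.33 and 0.845% in treated and 0.444 and 0.218% in untreated wild-type libraries, again without overlap.

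HSP90AA1 counts were 92.9 and 93.4% of HSP90AB1 counts in treated and 243 and 179% in untreated knock-in libraries, and 116 and 110% in treated and 194 and 297% in untreated wild-type libraries. The inducible form thus had more counts than the constitutive one in every untreated library, and fewer in both treated knock-in libraries. HSPE1 counts were 8.51 and 8.55% of HSPD1 counts in treated and 11.1 and 10.6% in untreated knock-in libraries, and 6.73 and 7.43% in treated and 9.92 and 9.65% in untreated wild-type libraries. The lid was lower relative to its chaperonin in all treated libraries. HSPA8 and HSPD1, by contrast, kept nearly the same ratio, with HSPA8 counts at 153 to 164% of HSPD1 counts over all 8 libraries. The pairs were chosen after their levels were seen, and no test was made of the ratios.

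**Figure D4:**
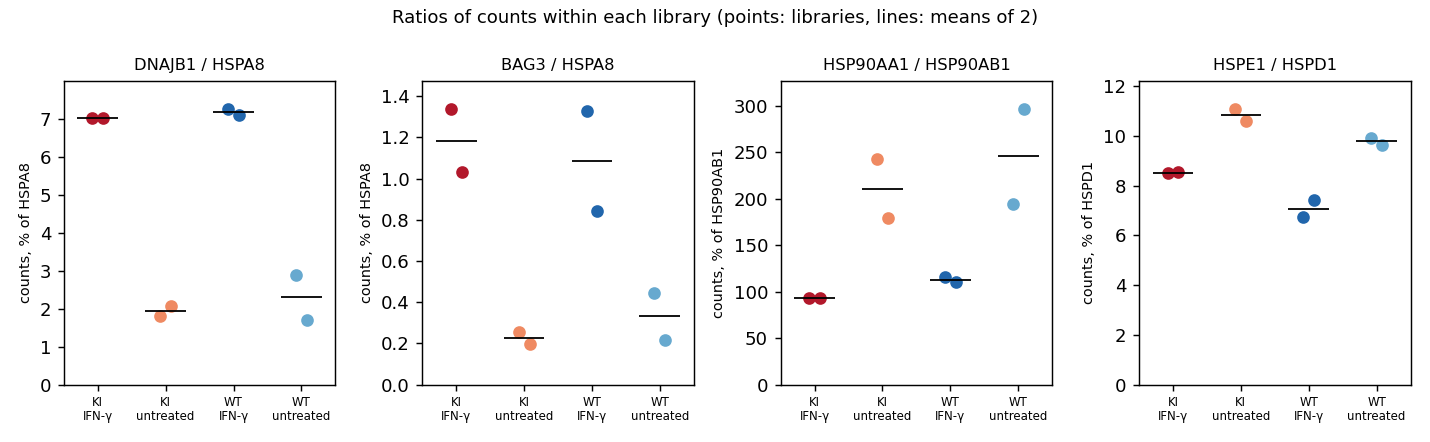
Ratio of estimated counts of 2 genes within each library, in percent, with each library as a point and the mean of 2 as a line. The GC and length trend was not removed. DNAJB1 and BAG3 relative to HSPA8 are higher in all treated than in all untreated libraries, and HSP90AA1 relative to HSP90AB1 and HSPE1 relative to HSPD1 are lower.

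The genes whose log2 CPM followed HSPA8 most closely over the 8 libraries, among 10869 named genes with a mean of at least 5 CPM, were PNP (Pearson r = 0.999), CTSL (0.998) and TMEM38B (0.998). Those nearest to HSPD1 were EI24 (0.997), PNP (0.996) and CTSL (0.996). For HSPA8 and HSPD1 all treated libraries were below all untreated ones, and all genes share the scaling and GC trend of each library. These values thus describe likeness over the groups only. For HSPA1A and HSPA1B summed, the highest value was 0.950 with XIAP, on counts too sparse to read.

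Between the lines, no member was called with IFN-γ, in a comparison that called 2.91% of all tested genes, nor without treatment, where 8.43% were called. With IFN-γ the median log2 fold change of the 9 members was -0.26, against -0.01 for all tested genes, and the replicates of the lines did not overlap for 5 members (57.7% of all tested genes). HSPA8 had a log2 fold change of -0.39 (adjusted p = 0.225, edgeR), HSP90AA1 of -0.41 (adjusted p = 0.263, edgeR), HSPD1 of -0.40 (adjusted p = 0.234, edgeR) and DNAJB1 of -0.42 (adjusted p = 0.204, edgeR), each lower in both treated knock-in libraries than in both treated wild-type libraries. These 4, of the 9 tested, had an unadjusted p under 0.05. When the 4 treated libraries were fitted alone, all 4 were called, HSPA8 at -0.37 (adjusted p = 0.00325, edgeR), HSP90AA1 at -0.39 (adjusted p = 0.000893, edgeR), HSPD1 at -0.38 (adjusted p = 0.00473, edgeR) and DNAJB1 at -0.40 (adjusted p = 0.00455, edgeR). That fit called 15.2% of all tested genes, and its spread came from 2 libraries per group alone. HSPE1 (-0.13), HSPH1 (-0.09), HSPB1 (0.05) and BAG3 (-0.26) were called in neither fit.

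Without treatment the median of the members was -0.22, against -0.02 for all tested genes, and the replicates did not overlap for 4 members (50.6% of all tested genes). BAG3 had the lowest log2 fold change, -0.69 (adjusted p = 0.125, edgeR), followed by HSPB1 at -0.54 (adjusted p = 0.158, edgeR) and DNAJB1 at -0.39 (adjusted p = 0.127, edgeR). HSPD1 was at -0.29, HSP90AA1 at -0.22, HSPA8 at -0.20, HSPE1 at -0.14 and HSPH1 at 0.13, with adjusted p of 0.242 to 0.637 (edgeR). Which untreated wild-type library was used decided these values. Replicate 1 had the highest mean GC content of counted transcripts among the untreated libraries (47.05%). Without it, HSPA8, HSP90AA1 and HSPD1 were at -0.41, -0.48 and -0.50. Without replicate 2, HSPB1, DNAJB1 and BAG3 were at -0.88, -0.53 and -0.95, and HSPA8 and HSP90AA1 changed sign to 0.04 and 0.10. Each of these fits left 1 untreated wild-type library, so only the sizes are given here.

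The response to IFN-γ was not shown to differ between the lines for any member. The difference, knock-in response minus wild-type response on the log2 scale, was 0.58 ± 0.31 for HSPB1 (adjusted p = 0.688, edgeR) and 0.43 ± 0.36 for BAG3, and between -0.22 and 0.00 for the 6 others given here. Of the 16519 tested genes none was called in this comparison by edgeR (0%). Of them 1119 had an unadjusted p under 0.05, no member being among these. DESeq2 called 4 genes, and edgeR with no filter called more, as given in the last section. HSPB1, called in knock-in cells alone, is thus not shown to respond differently in the lines.

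The plasma and B cell markers summed to 0.4959 and 0.3266 CPM in treated and 326.1 and 359.6 CPM in untreated wild-type libraries, so in wild-type cells they move with the treatment and cannot be told apart from it. In knock-in cells they were high in library 2 of each group, treated or not, and at most 0.4396 CPM in library 1. When both libraries numbered 2 were left out, the knock-in response was -0.99 for HSPA8, -1.25 for HSP90AA1, -0.93 for HSPD1, -1.31 for HSPE1, 0.96 for DNAJB1 and 1.40 for BAG3. HSPH1 was at -0.29 and HSPB1 at 0.72 in the same fit. It left 1 library in each knock-in group, taken to vary like the other groups, so only the sizes are given here.

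Beyond the 10 genes, 129 symbols of chaperones, co-chaperones and heat shock regulators were looked up in 9 lists. They matched 130 IDs, HSPA14 having 2, and 119 were tested. Fold changes of single genes from these lists are given under TMM scaling without removal of the GC and length trend, unless stated otherwise. Transcripts of the 119 had a GC content of 33.1 to 65.77%. The named genes that fell with IFN-γ were mostly poorer in GC than those that rose, though HSPB11 (52.02%) fell and FKBP5 (41.55%) rose. In treated against untreated knock-in cells 27 were higher and 57 lower (70.6%, against 52.1% of all tested genes), with a median log2 fold change of -0.46. In wild-type cells 18 were higher and 52 lower (58.8%, against 37.9%), with a median of -0.28. After removal of the GC and length trend the counts were 18 higher and 52 lower in knock-in cells (58.8%, against 32.2%), with a median of -0.20, and 10 higher and 40 lower in wild-type cells (42%, against 25.5%), with a median of -0.19. Under ERCC scaling 1 was higher and 72 lower in knock-in cells (61.3%, against 36.9%), and 0 were higher and 83 lower in wild-type cells (69.7%, against 42.2%). On that scale 5476 of 6092 calls over all genes were lower in knock-in cells, and 6745 of 6978 in wild-type cells.

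Most cytosolic chaperonin and prefoldin genes, whose products fold actin and tubulin, were lower with IFN-γ. Of 16 tested, 0 were higher and 13 lower in knock-in cells (81.2%, where 25.8% of all tested genes were lower), and 0 were higher and 14 lower in wild-type cells (87.5%, where 20.8% were lower), with medians of -0.93 and -0.79. CCT7 was at -0.20 and -0.08 and CCT6B at -0.86 ± 0.82 and -0.94 ± 0.82, none called, and PFDN2 at -0.46 and -0.70 was called in wild-type cells alone. The prefoldin subunit PFDN4 had 16.89 and 19.23 CPM in treated and 90.75 and 84.41 CPM in untreated knock-in libraries, and 15.53 and 14.33 CPM in treated and 46.06 and 68.59 CPM in untreated wild-type libraries. It fell by 2.28 ± 0.20 in knock-in and by 1.94 ± 0.20 in wild-type cells on the log2 scale, further than any of the 10 members under TMM scaling. Its GC content was 35.29%, below that of every member, and its value after removal of the GC and length trend is not given here. The chaperonin subunit CCT8 was at -1.43 ± 0.15 and -1.32 ± 0.15 in the same order, CCT2 at -1.36 ± 0.14 and -1.25 ± 0.14, and the prefoldin subunit VBP1 at -1.56 ± 0.15 and -0.99 ± 0.15, all called. After removal of the GC and length trend 13 of 16 were lower in knock-in cells (81.2%, against 32.2% of all tested genes called in either direction) and 9 of 16 in wild-type cells (56.2%, against 25.5%), and none was higher.

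Among the other HSP70 proteins 2 of 10 tested IDs were higher and 4 lower in knock-in cells (60%, against 52.1% of all tested genes), and 1 was higher and 4 lower in wild-type cells (50%, against 37.9%). HSPA9, the mitochondrial HSP70, had a log2 fold change of -0.72 ± 0.12 in knock-in and -0.60 ± 0.12 in wild-type cells. HSPA13 was at -1.67 ± 0.18 and -1.29 ± 0.18, HSPA4L at -1.21 ± 0.14 and -0.68 ± 0.14, and HYOU1, an exchange factor of the endoplasmic reticulum, at 1.11 ± 0.16 and 0.76 ± 0.16 in the same order. Of the 2 IDs of HSPA14, one was at -1.43 and -1.33 and was called in both lines, and the other at 0.19 and -0.05 was not. HSPA5, the HSP70 of the endoplasmic reticulum, was at 0.08 ± 0.11 in knock-in and 0.30 ± 0.11 in wild-type cells (adjusted p = 0.606 and 0.0614, edgeR), and HSPA4 at -0.12 and -0.03, neither being called.

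Of 17 other genes of the HSP90 family and its co-chaperones, 5 were higher and 7 lower in each line (70.6%, against 52.1% in knock-in and 37.9% in wild-type cells). After removal of the GC and length trend 3 were higher and 8 lower in knock-in cells (64.7%, against 32.2% of all tested genes). In wild-type cells 2 were then higher and 6 lower (47.1%, against 25.5%). Under ERCC scaling 0 were higher in either line. On that scale 11 were lower in knock-in (64.7%, against 36.9%) and 12 in wild-type cells (70.6%, against 42.2%). The p23 gene PTGES3 was at -1.28 ± 0.16 in knock-in and -0.77 ± 0.16 in wild-type cells, CDC37L1 at -1.41 ± 0.15 in knock-in cells, with a fold of 0.501 in wild-type cells, RPAP3 at -1.56 ± 0.18 and -1.03 ± 0.18 in the order knock-in, wild-type, and CHORDC1 at -1.22 ± 0.19 and -1.02 ± 0.19, all called. Among the immunophilins FKBP4 was at 1.12 ± 0.16 and 0.63 ± 0.16 and FKBP5 at 0.43 ± 0.12 and 0.47 ± 0.12, all called, and PPID at -0.27 and -0.28, not called. STIP1, which bridges HSP70 and HSP90, was at 0.14 in knock-in cells (adjusted p = 0.405, edgeR) and 0.44 in wild-type cells (adjusted p = 0.0229, edgeR).

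Of 38 J-domain genes 8 were higher and 17 lower in knock-in cells (65.8%, against 52.1%), and 8 were higher and 14 lower in wild-type cells (57.9%, against 37.9%). DNAJB9 was at -1.84 ± 0.24 in knock-in and -1.59 ± 0.24 in wild-type cells, DNAJB4 at -1.63 ± 0.17 and -1.10 ± 0.17, DNAJC10 at -1.46 ± 0.15 and -1.15 ± 0.15, and DNAJC19 at -1.26 ± 0.17 and -1.33 ± 0.17. GAK, which uncoats clathrin vesicles with HSP70, was at 1.50 ± 0.25 and 0.87 ± 0.24, so under TMM scaling DNAJB1 was not alone in rising among genes of this family. After removal of the GC and length trend 8 of the 38 were higher and 13 lower in knock-in cells (55.3%, against 32.2%). In wild-type cells 5 were higher and 12 lower (44.7%, against 25.5%). Under ERCC scaling 1 was higher and 22 lower in knock-in cells (60.5%, against 36.9%), and 0 were higher and 26 lower in wild-type cells (68.4%, against 42.2%). Of 11 exchange factors and their partners 2 were higher and 5 lower in knock-in cells (63.6%, against 52.1%), and 1 was higher and 3 lower in wild-type cells (36.4%, against 37.9%). After removal of the GC and length trend 0 were higher and 3 lower in knock-in cells (27.3%, against 32.2%), and 0 were higher and 1 lower in wild-type cells (9.09%, against 25.5%). Those lower without that removal included GRPEL1, the exchange factor of HSPA9, at -0.84 ± 0.15 and -0.83 ± 0.15, BAG2 at -0.91 ± 0.14 and -0.76 ± 0.14, and GRPEL2 at -1.13 ± 0.16 and -0.68 ± 0.16. BAG6 was at 0.91 ± 0.39 in knock-in cells (adjusted p = 0.0816, edgeR) and 1.18 ± 0.40 in wild-type cells (adjusted p = 0.0419, edgeR). Of 9 other genes listed under small heat shock proteins 2 were tested, and whether their products act as chaperones was not examined. HSPB11 was lower in both lines (-1.33 and -1.13), and HSPB8 was at 0.14 and 0.04, not called.

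Of 10 tested genes of mitochondrial protein quality control, 5 were higher and 3 lower in knock-in cells (80%, against 52.1%), and 2 were higher and 2 lower in wild-type cells (40%, against 37.9%). The matrix protease LONP1 was at 1.15 ± 0.24 in knock-in cells (adjusted p = 0.00316, edgeR) and 0.61 ± 0.24 in wild-type cells (adjusted p = 0.071, edgeR), the disaggregase CLPB at 1.01 ± 0.19 and 0.72 ± 0.19, SPG7 at 0.97 ± 0.16 and 0.74 ± 0.16, and the peptidase subunit PMPCB at -1.10 ± 0.17 and -0.92 ± 0.17. After removal of the GC and length trend 1 was higher and 2 lower in knock-in cells (30%, against 32.2% of all tested genes). In wild-type cells 1 was then higher and 1 lower (20%, against 25.5%).

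**Figure D5:**
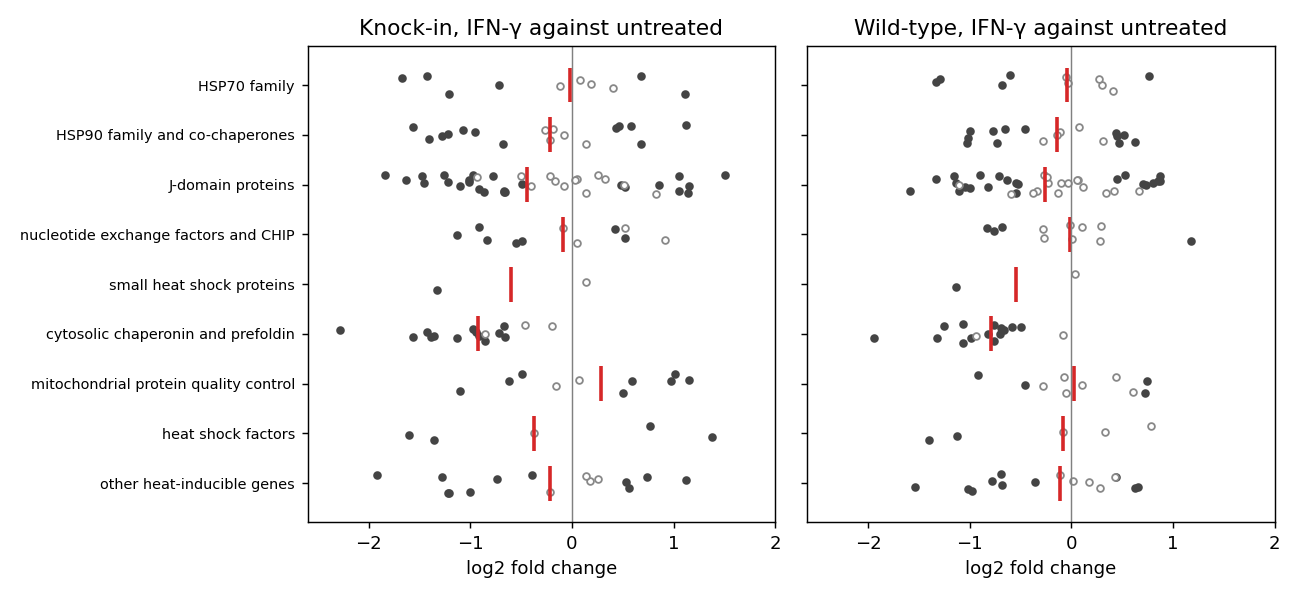
Log2 fold change with IFN-γ of every tested gene of the 9 wider lists in knock-in cells (left) and wild-type cells (right), with filled points for an adjusted p under 0.05, open points for the rest and a red line at the median of the list. Chaperonin and prefoldin genes all lie below 0 in both lines, with medians of -0.93 and -0.79, and each of the other lists spreads to both sides of 0.

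Of 5 tested genes of heat shock factors and their partners, 2 were higher and 2 lower in knock-in cells (80%, against 52.1% of all tested genes), and 0 were higher and 2 lower in wild-type cells (40%, against 37.9%). HSF1, the main heat-activated factor, had 35.94 and 33.59 CPM in treated and 16.49 and 10.38 CPM in untreated knock-in libraries, and 39.64 and 33.27 CPM in treated and 26.75 and 15.78 CPM in untreated wild-type libraries. It was higher by 1.38 ± 0.28 on the log2 scale in knock-in cells (adjusted p = 0.00273, edgeR), and was at 0.78 ± 0.27 in wild-type cells (adjusted p = 0.0501, edgeR). With a GC content of 63.91% it was at 0.78 in knock-in cells (adjusted p = 0.0102, edgeR) and 0.52 in wild-type cells after removal of the GC trend, and under ERCC scaling at 0.84 (adjusted p = 0.121, edgeR) and, with the opposite sign, -0.06. HSF2, a factor that cooperates with HSF1, had 35.53 and 35.86 CPM in treated and 84.12 and 99.05 CPM in untreated knock-in libraries, and 36.97 and 33.47 CPM in treated and 62.84 and 90.18 CPM in untreated wild-type libraries. It was at -1.36 ± 0.18 in knock-in and -1.12 ± 0.18 in wild-type cells, and at -0.59 and -0.62 after removal of the GC trend, all called. HSBP1, a small protein that binds HSF1, was at -1.60 ± 0.16 and -1.40 ± 0.16, and at -1.66 and -1.56 after that removal, all called. These are mRNA levels, and activity of the factors was not measured.

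Of the 15 other heat-inducible genes, 4 were higher and 7 lower in knock-in cells (73.3%, against 52.1%), and 3 were higher and 7 lower in wild-type cells (66.7%, against 37.9%), with CACYBP at -1.28 ± 0.16 in knock-in and -0.98 ± 0.16 in wild-type cells and RGS2 at -1.92 ± 0.18 and -1.54 ± 0.18. Between the lines, 2 of the 119 genes were higher and 1 lower with IFN-γ (2.52%, against 2.91% of all tested genes), and 4 were higher and 4 lower without treatment (6.72%, against 8.43%). CHAC1, a glutathione-degrading enzyme induced by heat and amino acid stress, had 11.14 and 14.52 CPM in treated and 10.75 and 11.82 CPM in untreated knock-in libraries, and 2.861 and 3.347 CPM in treated and 3.31 and 2.806 CPM in untreated wild-type libraries. It was higher in knock-in cells by 2.05 ± 0.24 with IFN-γ (adjusted p = 0.00196, edgeR) and by 1.88 ± 0.24 without treatment (adjusted p = 0.00253, edgeR). RGS2 was higher in knock-in cells by 0.94 ± 0.18 and 1.32 ± 0.18 in the same order, and FKBP5 was lower, at -0.66 ± 0.12 and -0.61 ± 0.12. Without treatment, FKBP4 (-0.80), TIMM44 (-0.63) and DNAJC11 (-0.62) were lower and HSPA13 (0.85) and VBP1 (0.61) higher in knock-in cells.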

How the data were processed

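Samples were grouped by their labels. Trimmomatic and kallisto with GRCh38 made the values, per the submitters' processing notes, which as used here give no versions and no transcript annotation. The deposited table holds the authors' estimated counts for 40295 Ensembl gene IDs and 63 ERCC spike-ins. Of the nonzero values, 58.1% differ from a whole number (tolerance 1e-06), and all were rounded here. GENCODE 29 on GRCh38 gave names to 35583 IDs, with positions, lengths and GC content of the longest coding transcript, and RefSeq gave the promoters.

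Genes were kept by filterByExpr (minimum count 10), scaled by TMM (factors 0.86 to 1.134) and tested with the quasi-likelihood F test of edgeR 4.0.16 (R 4.3.3) on all 8 libraries, with group as the only factor, 5 contrasts and a Benjamini-Hochberg threshold of 0.05. A standard error is the size of a log2 fold change over the root of its F. The steps were tested on simulated data. In each comparison the wider-list genes named were the 3 called ones with the largest change per list at 5 CPM or more, with HSF1, HSF2, HSPA5, HSP90AB1, HSPA9, HSPA4 and STIP1 in any case, and a gene named in one line is also given in the other. The members and lists were chosen with earlier results of these data known. Alternatives were DESeq2 1.42.0, its size factors, ERCC scaling, no filter, at least 50 counts in 2 libraries, the replicate number as a block, removal of the GC and length trend (loess, span 0.3, GC known for 92.4% of tested genes), the groups compared alone, HSPA1A and HSPA1B summed, each library left out, and both knock-in libraries numbered 2 left out.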

Additional observations from a re-analysis of the deposited data

How the results depend on the processing

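Over all alternatives, 625 of 704 fold changes of single members kept their direction and side of the threshold, 17 lost a call, 35 gained one and 27 changed sign. The sum of HSPA1A and HSPA1B could move none of them, since HSPA1A had no count in any library. A library left out from outside the groups compared acts only through the shared filter, scaling and spread. The 625 thus include values with little or no room to move. The falls of HSPA8, HSP90AA1, HSPD1 and HSPE1 with IFN-γ were called in both lines under each alternative run. The count of members called was 8 in the knock-in and 6 in the wild-type response, and ERCC scaling left 5 in each, all lower (0 higher). Under ERCC scaling the calls over all genes were 616 higher and 5476 lower in the knock-in and 233 higher and 6745 lower in the wild-type response, where HSPB1 was at -0.73, against 4356 higher and 4257 lower and 2821 higher and 3435 lower with TMM in the same order. Removal of the GC and length trend left 5312 genes called in the knock-in response, in place of 8613, and put HSPH1 at 0.13 in knock-in and 0.12 in wild-type cells. With single libraries left out, the wild-type response called 3266 to 7796 genes, in place of 6256, and HSPB1 there ranged from -0.23 to 0.48.

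In knock-in against wild-type cells with IFN-γ, 481 genes and 0 members were called, against 195 genes and 3 members under ERCC scaling, 1170 and 3 after removal of the GC and length trend, 2427 and 4 with the compared groups alone, 888 genes with DESeq2 and 1227 with no filter. HSPB1 became -0.01 under ERCC scaling and -0.05 after the GC removal. With single libraries left out, 147 to 1111 genes and 0 to 4 members were called, the 4 without either untreated wild-type library, HSPB1 ranged from -0.05 to 0.14, HSPE1 from -0.26 to 0.01 and BAG3 from -0.51 to 0.06.

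In knock-in against wild-type cells without treatment, 1392 genes and 0 members were called, against 667 genes and 3 members under ERCC scaling, 2959 and 2 with no filter, 2362 and 2 after the GC removal, 2291 genes with DESeq2 and 614 with the compared groups alone. HSPH1 became -0.19 under ERCC scaling and -0.01 after the GC removal. With single libraries left out, 406 to 4815 genes and 0 to 4 members were called, the most without untreated wild-type replicate 2, HSPA8 ranged from -0.41 to 0.04, HSP90AA1 from -0.48 to 0.10 and HSPE1 from -0.33 to 0.09.

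For the difference between the responses, DESeq2 called 4 genes and no filter 267, and 0 to 2 were called with single libraries left out. Under ERCC scaling HSPA8 was at 0.06, HSPH1 at 0.04, HSP90AA1 at 0.04, HSPD1 at 0.14 and DNAJB1 at 0.26, after the GC removal HSPH1 was at 0.01 and HSPD1 at 0.09, and without both knock-in libraries numbered 2 DNAJB1 was at 0.07. With single libraries left out HSPA8 ranged from -0.42 to 0.03, HSP90AA1 from -0.51 to 0.09, HSPD1 from -0.36 to 0.11 and DNAJB1 from -0.18 to 0.12. The cause of these changes was not tested.

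Libraries that share a replicate number deviated from their group means with correlations of 0.0117 to 0.281 over 16519 genes. The highest value was that of untreated and treated knock-in cells, and the next was 0.126. In knock-in cells the plasma cell transcripts also went with the replicate number. The labels state no pairing, and whether the numbers pair the samples cannot be told from these values. The replicate block called 8725 genes and 8 members in the knock-in response, 6765 and 6 in the wild-type response, 523 and 0 between the lines with IFN-γ, and 1849 and 1 without treatment, where BAG3 was called at -0.66 (adjusted p = 0.0282, edgeR). It called 0 genes in the difference between the responses. The low counts of HSPA1B gave no usable fold change under any setting.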
